A study of Heterocephalus glaber with 23 samples.

Results

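The mitochondrial ribosome translates the few messages of mitochondrial DNA, all of which encode subunits of the respiratory chain and ATP synthase. Its RNA is made inside the mitochondrion, whereas all of its proteins are encoded by nuclear genes, translated in the cytosol and imported. The MRPL genes encode most proteins of the large subunit, which holds the site of peptide bond formation, and the MRPS genes most proteins of the small subunit, which reads the codons. Liver cells are rich in mitochondria and depend on this ribosome for oxidative phosphorylation.

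The genes described here are the rows of the liver count table whose symbol begins with MRPL or MRPS followed by a digit, 74 of 16339 rows, of which 47 were MRPL and 27 MRPS. Filtering on low counts left 72 of them (46 MRPL, 26 MRPS) among 12306 genes tested. MRPL51 had 2 counts and MRPS33 had 4 counts in all libraries together and were not tested. For comparison, 3 counts of all 377670071 correspond to 0.00794 CPM, that is counts per 1000000 counts of a library. The symbols MRPS22, MRPS25 and MRPL57 were not analysed here.

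The data were RNA-seq counts of liver from the naked mole-rat (NMR), a long-lived rodent in whose colonies reproduction is limited to a breeding pair and the other adults do not breed. The study asked how breeding status and sex change the transcriptome. Groups were 6 female breeders, 5 female non-breeders, 6 male breeders and 6 male non-breeders, aged 2.4 to 4.1 years, with no genetic change or drug. Breeders had left their colony and lived with an unrelated partner, and non-breeders were litter siblings that stayed behind, so colony and housing cannot be told apart from status. Male breeders were taken within days of a birth, whereas sampling of their partners waited for weeks beyond the last pregnancy, so in breeders the time since a birth cannot be told apart from sex. All female breeders and 3 of 6 male breeders had been sequenced with shorter reads than the other libraries.

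Library totals lay between 11826665 and 22969366 counts. The hepatocyte markers checked, 15 of 15 present, summed to between 130048 and 266807 CPM per library. Of the listed markers of any cell type that had a row, none was at 0 in all libraries. Some had no row, with 13 of 15 present for striated muscle and 8 of 9 for neutrophils. Others did not pass the filter on low counts, which left 6 of 10 for lymphocytes. The genes described here were highest, by their median, in male breeder 5, male non-breeder 3 and female breeder 6, and the main results that differ without them are given both ways. In whole liver, fewer cells of a type and less RNA per cell cannot be told apart.

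No gene of the mitochondrial ribosome passed the test in any of the comparisons of sex or status. Between breeders and non-breeders the median difference over the 72 genes was 0.0014 on the log2 scale. Females tended to lower values than males, with 58 of 72 genes below 0 and a median of -0.14. In size this median was below the spread of 0.178 (SD) between single libraries of a group. That spread is not the error of a difference between groups, so the median was not tested by it. Much of the variation between libraries was common to many of the genes.

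The genes together took 0.254% ± 0.0293 of all counts (SD, n = 23), between 0.217% and 0.316% in single libraries. Levels below are CPM relative to library sizes scaled by TMM, a factor that corrects for libraries dominated by a few genes. CPM were not divided by transcript length, so they are compared between animals and not between genes. Summed over the 72 genes, female breeders had 2437 CPM ± 346 (SD, n = 6), from 2065 over a median of 2351 to 2973. The 5 female non-breeders had 2142, 2341, 2387, 2422 and 2743 CPM, with a mean of 2407 ± 217 (SD, n = 5). All female non-breeders lay within the span of the female breeders.

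Male breeders had 2654 CPM ± 175 (SD, n = 6), from 2407 over a median of 2644 to 2922. Male non-breeders had 2660 CPM ± 410 (SD, n = 6), from 2196 over a median of 2564 to 3414. The male groups overlapped each other and both female groups, and the highest sum belonged to male non-breeder 3 and the lowest to female breeder 2.

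The proportion of MRPS to MRPL genes varied little between libraries. The split is by symbol, although MRPS18A and MRPS30 lie in the large subunit and MRPS36 is not known as a stable part of either. The ratio of summed MRPS to summed MRPL levels averaged 0.442 ± 0.0236 (SD, n = 6) for female breeders and 0.436 ± 0.0168 (SD, n = 5) for females that did not breed. Males averaged 0.450 ± 0.0152 (SD, n = 6) as breeders and 0.453 ± 0.0198 (SD, n = 6) as non-breeders. Single libraries lay between 0.406 in female breeder 3 and 0.479 in male non-breeder 2, and the 4 groups overlapped. Even in male non-breeder 3, where both sums were the highest of all, the ratio was 0.465.

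**Figure D1:**
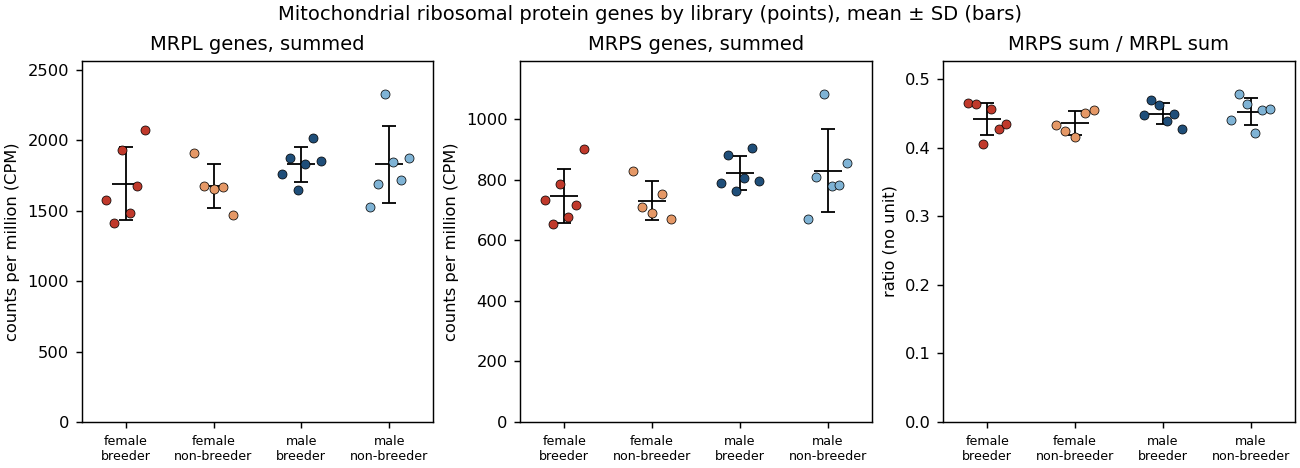
Summed level of the 46 MRPL genes and of the 26 MRPS genes in CPM, and the ratio of both sums, for each of 23 libraries (points) with the group mean ± SD (bars). The 4 groups overlap in each panel, the highest sums belong to male non-breeder 3 (2331 CPM for MRPL, 1083 CPM for MRPS), and the ratio stays between 0.406 and 0.479.

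Levels of single genes covered a wide range, and those with the most counts did not separate the groups. MRPL37, a protein of the large subunit with no bacterial counterpart, averaged 159 CPM ± 26.1 (SD, n = 23) and lay between 112 and 207 CPM. MRPL43, likewise specific to mitochondria, averaged 110 CPM ± 24.3 (SD, n = 23) and was highest at 178 CPM in male non-breeder 3. MRPL45, which holds the ribosome at the inner membrane where new proteins are inserted, averaged 92.0 CPM ± 8.29 (SD, n = 23). These genes overlapped in all groups, MRPL45 most closely, with group means between 89.6 and 93.7 CPM.

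MRPS26 of the small subunit averaged 90.8 CPM ± 20.3 (SD, n = 23). MRPL16, the counterpart of a bacterial protein that helps to place tRNA on the large subunit, averaged 79.3 CPM ± 13.6 (SD, n = 23). In male breeders 5 of 6 values of MRPL16 lay between 79.1 and 80.5 CPM, and male breeder 5 stood apart at 100.2 CPM.

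At the low end, MRPS21, a small-subunit protein with a bacterial counterpart, averaged 4.05 CPM ± 2.40 (SD, n = 23) from 13 to 153 counts per library. Its values ran from 0.758 to 11.1 CPM, the widest span of the 72 genes as a ratio of highest to lowest, with a standard deviation between libraries of 0.888 on the log2 scale once group means were removed. MRPL18 averaged 6.29 CPM ± 2.15 (SD, n = 23), MRPL47 7.38 ± 1.49 (SD, n = 23), MRPL32 9.31 ± 1.496 (SD, n = 23) and MRPL42 9.40 ± 2.48 (SD, n = 23). MRPL18 has a bacterial counterpart, MRPL42 has none, and MRPL32 must be trimmed by the inner-membrane AAA protease before it can be built in. None of these low values had under 10 counts in a library, and the shallowest was that of MRPS21.

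Most of the genes varied less between libraries than the typical gene. The median standard deviation between libraries was 0.249 on the log2 scale for the 72 genes and 0.356 for all tested genes, and 61 of 72 lay below the median of all genes. This comparison does not allow for level, and the median mean level was 28.8 CPM for the 72 genes and 14.1 CPM for all. The steadiest were MRPS5 (0.121), MRPL46 (0.126) and MRPS2 (0.128). MRPS5 and MRPS2 belong to the core of the small subunit that is shared with bacteria, and MRPL46 is specific to mitochondria.

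For MRPS5 female breeders ranged from 29.98 to 33.8 CPM with a median of 31.9, and the female non-breeders had 31.3, 32.4, 33.5, 34.8 and 39.1 CPM. Male breeders ranged from 29.5 to 35.7 CPM with a median of 32.5, and male non-breeders from 27.4 to 36.4 with a median of 30.1. All groups overlapped within a narrow band. After MRPS21 the widest spread was found for MRPS28 (0.458) and MRPL18 (0.454).

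Status was compared first, since it is the question of the study. In females breeders exceeded non-breeders by a median of 0.027 on the log2 scale over the 72 genes, with 25 of 72 genes below 0, against 0.010 over all tested genes. It turned to -0.036 without female breeder 6 and was 0.16, with 17 of 72 genes below 0, with read length class as a covariate. Without the 3 libraries that stood highest it was -0.035, with 48 of 72 genes below 0. All female breeders were of the shorter and all female non-breeders of the longer class, so in females alone read length and status cannot be told apart. The covariate's effect was set by the male breeders, the only group with both classes, and carried over to females. None of the 72 genes passed an adjusted p of 0.05 (edgeR's quasi-likelihood test with Benjamini-Hochberg adjustment), as for 0% of all tested genes. At an unadjusted p of 0.05 the counts were 0 of 72 and 3.70% of all genes. In males the median was -0.0064 with 36 of 72 genes below 0, against -0.016 over all genes. Again 0 of 72 passed, with 0% of all genes, and at an unadjusted p of 0.05 the counts were 0 of 72 and 5.88% of all genes.

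Averaged over both sexes, 36 of 72 genes lay below 0. None passed, as for 0% of all genes, and 0 of 72 had an unadjusted p below 0.05 against 7.94% of all genes. The even split was not stable. Without male non-breeder 3, 19 of 72 genes lay below 0 with a median of 0.056. With read length class as a covariate 17 of 72 did, with a median of 0.092, and without the 3 libraries that stood highest 34 of 72. How far status differed between the sexes (females minus males) had a median of 0.013, with 0 of 72 genes past the threshold (0% of all genes) and 0 of 72 at an unadjusted p of 0.05 (1.85% of all genes). This median had 34 of 72 genes below 0, and it turned to -0.065 without male non-breeder 3 and to -0.096, with 52 of 72 below 0, without the 3 libraries that stood highest. DESeq2 and limma voom with library quality weights also called none of the genes in any of these comparisons. The median standard error per gene was 0.106 in the comparison averaged over sex, and for 71 of 72 genes the 95% interval stayed within a 2-fold change in either direction. The exception was MRPS21, whose interval ran from -0.21 to 1.19 around 0.49.

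The genes of smallest p are given as examples and none of them passed. In females this was MRPL47, the counterpart of a bacterial protein at the exit of the peptide tunnel. Its 5 values in female non-breeders were 5.81, 6.04, 6.50, 6.56 and 6.61 CPM, and female breeders ranged from 5.85 over a median of 7.75 to 9.07 CPM. Of 6 female breeders 5 lay above every female non-breeder, and the difference was 0.30 ± 0.17 on the log2 scale (SE, adjusted p = 1.00 by edgeR).

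Next came MRPL4 of the large subunit, at -0.28 ± 0.17 (SE, adjusted p = 1.00), and MRPS18B of the small subunit at 0.37 ± 0.25 (SE, adjusted p = 1.00). MRPS18B had a wide spread among female breeders, from 28.4 to 72.5 CPM. All 5 female non-breeders, at 27.0, 29.7, 31.8, 34.2 and 50.5 CPM, overlapped that range.

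In males the smallest p belonged to MRPL32. Male breeders ranged from 8.39 over a median of 10.5 to 11.2 CPM and male non-breeders from 7.29 over a median of 8.67 to 10.3 CPM. The groups overlapped, and the difference was 0.23 ± 0.14 (SE, adjusted p = 0.933). MRPL49, specific to the mitochondrial large subunit, was at 0.18 ± 0.11 (SE, adjusted p = 0.942), and MRPL11, at the base of the stalk that recruits translation factors, at 0.16 ± 0.10 (SE, adjusted p = 0.943).

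Averaged over the sexes the smallest p belonged to MRPL49 with 0.14 ± 0.082 (SE, adjusted p = 0.705), followed by MRPL19 with 0.16 ± 0.10 (SE, adjusted p = 0.735) and MRPL42 with 0.22 ± 0.14 (SE, adjusted p = 0.753). For MRPL49 all 23 values lay between 20.9 and 33.0 CPM, both from female breeders. For the difference between the sexes in their response to status, the smallest p belonged to MRPL47 (0.29 ± 0.23, SE), MRPL4 (-0.26 ± 0.23, SE) and MRPL13 (0.23 ± 0.21, SE), each with an adjusted p of 1.00.

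Several genes of known function were followed whatever their values. MRPL3, mutated in a human cardiomyopathy of impaired oxidative phosphorylation, had group means between 47.4 and 50.4 CPM and a status difference of 0.068 ± 0.096 (SE). MRPL12, a stalk protein that also binds the mitochondrial RNA polymerase, differed by -0.019 ± 0.11 (SE). MRPL44, another gene of human cardiomyopathy, differed by -0.059 ± 0.090 (SE). MRPL41 differed by -0.13 ± 0.13 and MRPL45 by 0.019 ± 0.069 (SE).

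In the small subunit, MRPS7, which lies in the head near the path of the message, differed by -0.056 ± 0.081 between breeders and non-breeders (SE). MRPS12, the counterpart of the bacterial decoding protein, differed by -0.11 ± 0.12 (SE). MRPS27, a protein with RNA-binding repeats, differed by -0.051 ± 0.079 (SE). The 95% intervals of all of these genes included 0 and lay between -0.39 and 0.27.

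The genes MRPS18A, MRPS18B and MRPS18C descend from the same bacterial protein. MRPS18C keeps its place in the small subunit, MRPS18B sits elsewhere in the small subunit, and MRPS18A lies in the large subunit despite its name, as does MRPS30. Status differences were 0.019 ± 0.15 for MRPS18A, 0.22 ± 0.17 for MRPS18B, 0.029 ± 0.099 for MRPS18C and 0.056 ± 0.094 for MRPS30 (SE). The intervals of all included 0.

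**Figure D2:**
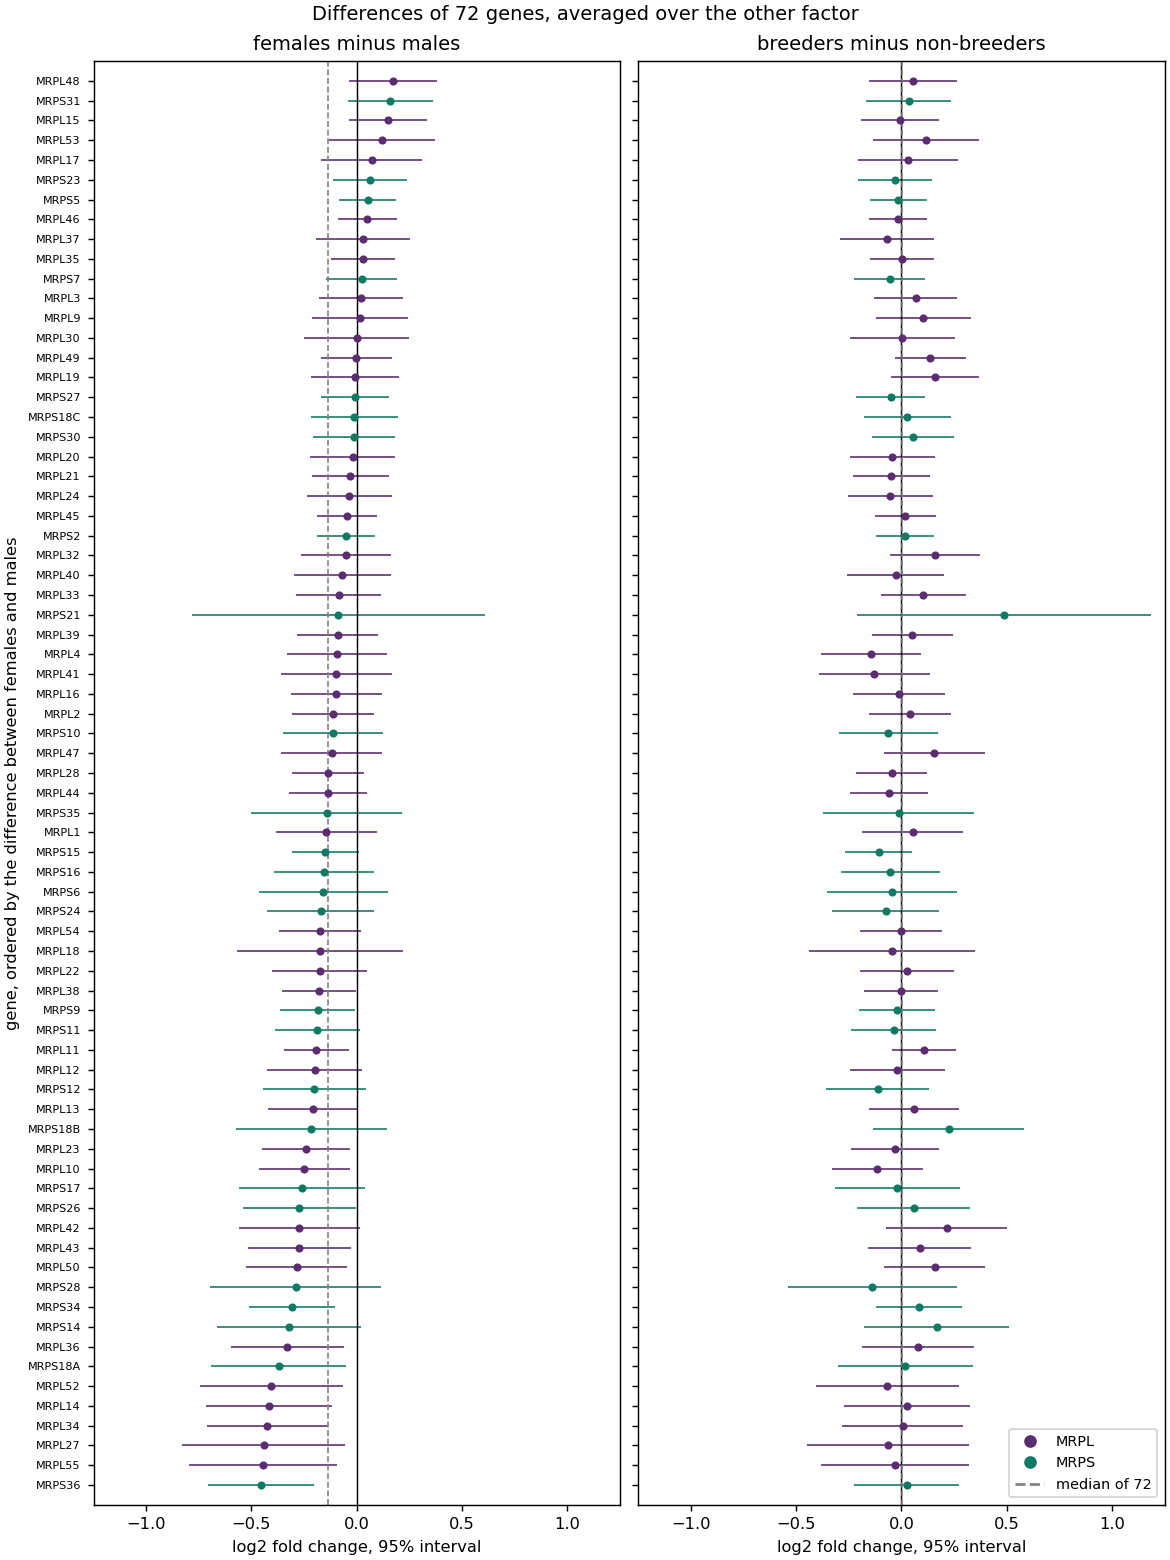
Log2 fold change of each of the 72 genes with its 95% interval, averaged over status for females minus males (left) and over sex for breeders minus non-breeders (right), in 1 common order. The dashed lines mark the medians, -0.14 and 0.0014. In the left panel 58 genes lie below 0, in the right panel 36, and MRPS21 has the widest interval in both.

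Between the sexes more of the genes leaned to one side. In non-breeders females lay below males by a median of -0.13, with 53 of 72 genes below 0, against 0.0034 over all genes. No member passed, where 0.0325% of all genes did. At an unadjusted p of 0.05, 9 of 72 genes (12.5%) were lower in females against 3.25% of all genes, and 0 were higher. In breeders the median was -0.11 with 57 of 72 genes below 0, against 0.023 over all genes. Here 0 of 72 passed against 0.0488% of all genes, and 4 of 72 (5.56%) were lower at an unadjusted p of 0.05 against 2.60% of all genes.

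Averaged over status, 58 of 72 genes lay below 0, against a median of 0.020 over all genes. Again 0 of 72 passed, where 0.0650% of all genes did, and 17 of 72 (23.6%) were lower in females at an unadjusted p of 0.05 against 6.23% of all genes. Both sets of symbols leaned alike, with 36 of 46 MRPL genes and 22 of 26 MRPS genes below 0 and medians of -0.11 and -0.16. Genes with a bacterial counterpart had medians of -0.12 in the large and -0.16 in the small subunit, and those specific to mitochondria -0.094 and -0.14. Since these genes vary together from library to library, their counts are not independent of each other.

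Single libraries moved these counts. Without male non-breeder 3 the median between the sexes in non-breeders was -0.043 in place of -0.13, with 43 of 72 genes below 0 and 1 in place of 9 at an unadjusted p of 0.05. Averaged over status it was -0.068 without that library, with 52 of 72 genes below 0 and 10 at an unadjusted p of 0.05. In breeders the 4 genes at an unadjusted p of 0.05 became 13 without female breeder 6, 0 without female breeder 2, 1 without male breeder 5 and 2 without any one of female breeder 4, male breeder 1 or male breeder 2. In non-breeders the 9 became 16 without male non-breeder 1, 5 without female non-breeder 3 and 4 without female non-breeder 5. Without the 3 libraries that stood highest, 55 of 72 genes lay below 0, with a median of -0.082 and 18 at an unadjusted p of 0.05. In breeders alone the median without them was -0.14, with 16 in place of 4 genes at an unadjusted p of 0.05, and in non-breeders -0.044 with 3 in place of 9.

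Read length class moved with the values in breeders, whereas all non-breeders were of the longer class. In breeders sequenced with shorter reads, 6 females against 3 males, the median was -0.048 with 45 of 72 genes below 0, in place of -0.11 with all breeders. With read length class as a covariate it was -0.045 in breeders. Averaged over status it was then -0.0995, with 51 of 72 genes below 0. There 9 in place of 17 genes were lower in females at an unadjusted p of 0.05. In males sequenced with longer reads, 3 breeders against 6 non-breeders, the status median was 0.025 with 28 of 72 genes below 0. Without male non-breeder 3 the status median in males was 0.091, with 13 of 72 genes below 0, and averaged over sex 4 in place of 0 genes had an unadjusted p below 0.05.

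The gene of smallest p between the sexes was MRPS36. It carries a ribosomal name, but is known in human and yeast cells as a part of the alpha-ketoglutarate dehydrogenase complex of the citric acid cycle, not as a stable part of the ribosome. Female breeders ranged from 8.33 over a median of 11.04 to 12.7 CPM and female non-breeders had 7.87, 8.56, 9.94, 11.1 and 12.9 CPM. Male breeders ranged from 11.4 over a median of 14.2 to 17.3 CPM and male non-breeders from 10.9 over a median of 13.1 to 22.9 CPM.

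Values of both male groups reached below the highest female values, so the sexes overlapped. Averaged over status MRPS36 was lower in females by -0.45 ± 0.12 on the log2 scale (SE, unadjusted p = 0.00103, adjusted p = 0.231 by edgeR), with -0.53 ± 0.18 in non-breeders and -0.38 ± 0.17 in breeders. Adjusted p ranged from 0.0598 with DESeq2 to 0.510 with read length class as a covariate. The genes OGDH, DLST and DLD, which encode the enzymes of the same complex and were chosen after the values of MRPS36 were seen, were at 0.039 ± 0.090, 0.16 ± 0.085 and 0.20 ± 0.17 (SE), and none of them passed.

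MRPS34 is specific to the mitochondrial small subunit and is needed for its stability. Female breeders ranged from 21.7 over a median of 24.0 to 35.3 CPM, and female non-breeders had 21.4, 21.8, 22.7, 24.5 and 28.8 CPM. Male breeders ranged from 27.7 over a median of 31.0 to 35.6 CPM and male non-breeders from 24.8 over a median of 28.1 to 41.8 CPM. Apart from female breeder 6 at 35.3 CPM, all female breeders lay below all male breeders. The difference averaged over status was -0.31 ± 0.099 (SE, adjusted p = 0.291 by edgeR).

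MRPL34, a small protein of the large subunit with a bacterial counterpart, differed by -0.42 ± 0.14 (SE, adjusted p = 0.305). Its values were 20.6 to 41.6 CPM in female breeders, 15.7, 23.5, 26.03, 26.5 and 28.5 CPM in female non-breeders, 25.97 to 38.9 CPM in male breeders and 26.7 to 53.1 CPM in male non-breeders. Female breeder 6 lay above all male breeders and the other female breeders below all of them, and male non-breeder 3 was the highest of all.

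In non-breeders the next smallest p after MRPS36 belonged to MRPL14 (-0.53 ± 0.21, SE), a core protein that faces the small subunit, and MRPL55 (-0.61 ± 0.25, SE), both with an adjusted p of 0.856. Without male non-breeder 3 these differences were -0.30 and -0.27. In breeders the smallest p belonged to MRPL11 (-0.24 ± 0.10, SE, adjusted p = 0.774), followed by MRPS36 and by MRPL10, which anchors the stalk (-0.32 ± 0.14, SE, adjusted p = 0.787). MRPL11 was at 40.1 to 55.1 CPM in female breeders and at 51.1 to 66.1 CPM in male breeders, and the groups overlapped in this stretch only.

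Other genes followed whatever their values lay on either side of 0 between the sexes. MRPL12 was at -0.20 ± 0.11 and MRPS12 at -0.20 ± 0.12, whereas MRPL3 was at 0.020 ± 0.096 and MRPS7 at 0.023 ± 0.081 (SE). MRPS18A was at -0.37 ± 0.16, MRPS18B at -0.22 ± 0.17 and MRPS18C at -0.011 ± 0.099 (SE). MRPL44 was at -0.14 ± 0.091, MRPL41 at -0.096 ± 0.13, MRPL45 at -0.046 ± 0.069, MRPS27 at -0.0087 ± 0.079 and MRPS30 at -0.013 ± 0.094 (SE). The highest of the 72 genes was MRPL48 at 0.17 ± 0.10 (SE, adjusted p = 0.545).

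**Figure D3:**
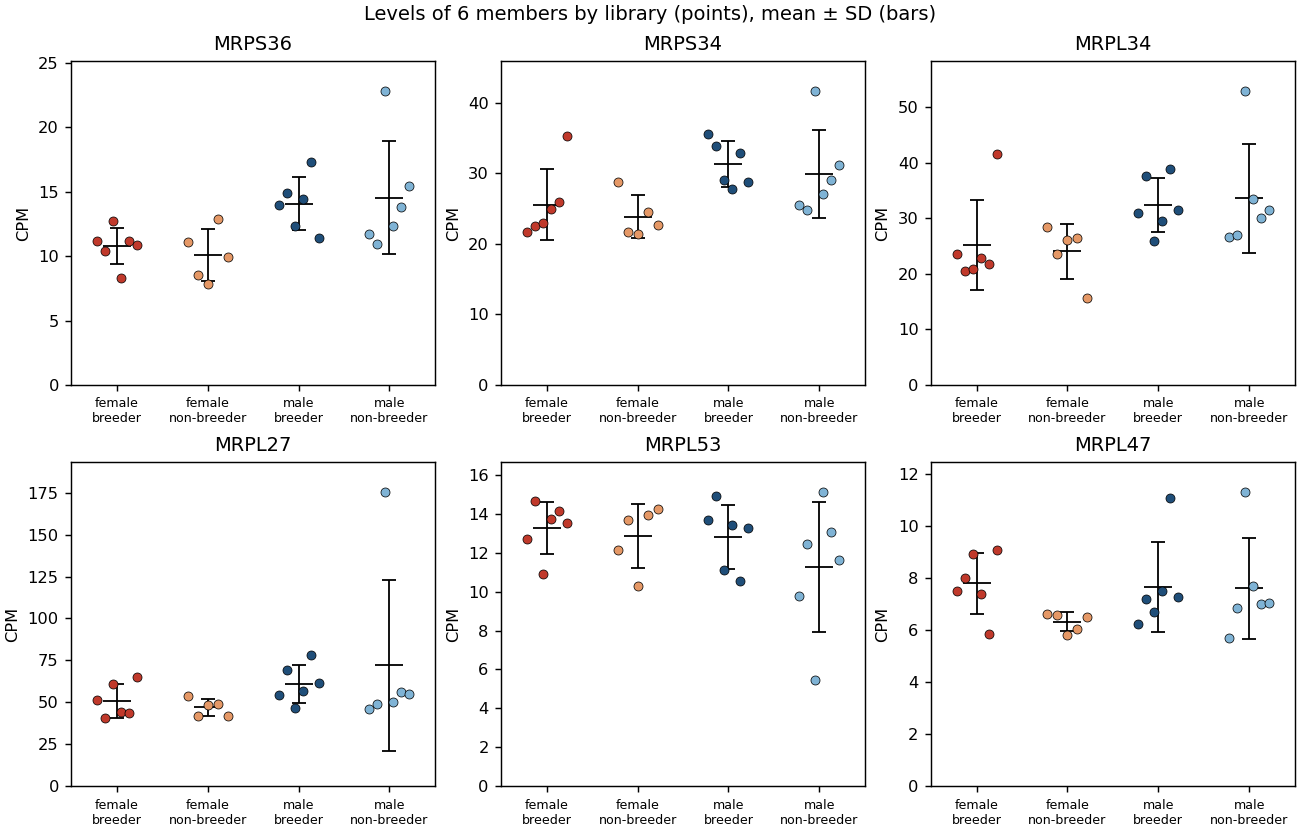
Level in CPM of MRPS36, MRPS34 and MRPL34, which had the smallest p between the sexes, of MRPL27 and MRPL53, the most extreme in male non-breeder 3, and of MRPL47, the smallest p between female breeders and non-breeders. Points are libraries and bars the group mean ± SD. MRPL27 reaches 175.7 CPM and MRPL53 5.46 CPM in male non-breeder 3.

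Families that work beside the mitochondrial ribosome were set beside it. The respiratory chain and ATP synthase hold the proteins this ribosome makes, together with many nuclear-encoded subunits, and most groups of these nuclear-encoded subunits had lower medians in females against males than the ribosomal genes. For complex I 30 of 34 genes lay below 0 with a median of -0.25, and for complexes II to V 35 of 42 with a median of -0.28. The 4 genes of complex II had a median of -0.013 with 2 of them below 0, complex III one of -0.25 and ATP synthase one of -0.20. Complex IV had 12 of 12 genes below 0 with a median of -0.33, with COX8A at -0.37 ± 0.12 (SE, adjusted p = 0.296). Ribosomal proteins of the cytosol lay below 0 in 79 of 79 genes with a median of -0.23. Without male non-breeder 3 the median was -0.16 for complex I, with 8 in place of 15 genes at an unadjusted p of 0.05, and -0.16 for the cytosolic ribosomal proteins, with 15 in place of 33. With read length class as a covariate these medians were -0.19 and -0.20. The genes lower at an unadjusted p of 0.05 then numbered 8 for complex I and 7 for the cytosolic ribosomal proteins. None of these genes passed the test.

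Between breeders and non-breeders the medians were -0.0025 for complex I, -0.011 for complexes II to V and -0.054 for the cytosolic ribosomal proteins, the last with 68 of 79 genes below 0. Without male non-breeder 3 the cytosolic ribosomal proteins turned to 0.029 with 33 of 79 below 0 and complex I to 0.085 with 4 of 34 below 0, and with read length class as a covariate they were at 0.061 and 0.10. In the comparison of sexes the median of the 72 mitochondrial ribosomal genes stood between those of these 3 lists and that of all tested genes. Complex II taken alone, with a median of -0.013 over 4 genes, did not follow this order. No test of the difference between families was made.

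Over all tested genes the median between the sexes was 0.020, with 45.9% of genes below 0. Genes that build, serve or regulate the mitochondrial ribosome had medians above 0 too. For its assembly factors and RNA-modifying enzymes the median between the sexes was 0.056, with 11 of 27 genes below 0, and FASTKD2, which is needed for the large ribosomal RNA, was at 0.49 ± 0.12 (SE, adjusted p = 0.209). Translation factors had a median of 0.057 with 7 of 16 genes below 0, led by MTFMT, which formylates the initiator tRNA, at -0.27 ± 0.13 (SE, adjusted p = 0.473). Mitochondrial aminoacyl-tRNA synthetases had a median of 0.055 with 7 of 19 below 0, and EARS2, which charges glutamate, was at 0.47 ± 0.19 (SE, adjusted p = 0.403).

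For mitochondrial transcription and RNA processing the median was 0.048 with 7 of 18 genes below 0. Regulators of mitochondrial biogenesis had a median of 0.050 with 4 of 9 below 0, and of 0.045 with 4 of 9 below 0 between breeders and non-breeders. Their lowest value by status was that of PPARGC1A, a coactivator that drives mitochondrial biogenesis, at -0.66 ± 0.35 (SE, adjusted p = 0.669). Between breeders and non-breeders the medians of the assembly, translation factor and synthetase lists were 0.015, -0.061 and -0.0045, against -0.0049 over all tested genes. None of the genes on these lists passed the test in any comparison.

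**Figure D4:**
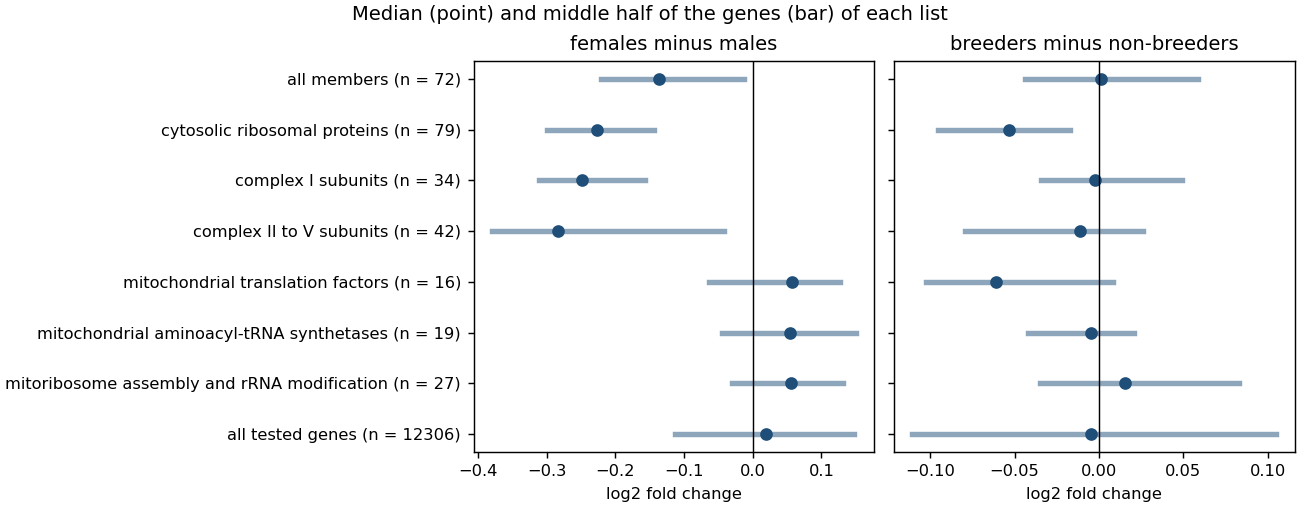
Median log2 fold change (points) and range of the middle 50% of genes (bars) for the mitochondrial ribosomal proteins and 6 other families, with all 12306 tested genes at the bottom, for females minus males (left) and breeders minus non-breeders (right). The axes of the panels differ. Between the sexes the medians of the members, the cytosolic ribosomal proteins and the respiratory complexes lie between -0.28 and -0.14, and those of the other lists between 0.020 and 0.057.

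Proteins of the mitochondrial ribosome that carry other symbols were measured too, 6 of 6. Of these GADD45GIP1 of the large subunit was at -0.39 ± 0.15 between the sexes (SE, adjusted p = 0.386) and CHCHD1 of the small subunit at -0.29 ± 0.14 (SE, adjusted p = 0.477). AURKAIP1 was at -0.22 ± 0.12 and DAP3, a GTP-binding protein of the small subunit, at -0.054 ± 0.082 (SE). ICT1, a peptidyl-tRNA hydrolase built into the large subunit, was at 0.0014 ± 0.097, and PTCD3, with RNA-binding repeats, at 0.33 ± 0.17 (SE). Their median of -0.14 was that of the 72 genes. For breeders against non-breeders the median was -0.029, with AURKAIP1 at -0.15 ± 0.12 (SE, adjusted p = 0.823).

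Markers of other liver cells were read beside these values. In breeders 9 of 9 markers of stellate cells and fibroblasts lay above 0 in females against males, with a median of 0.56, and their summed level was 123 to 310 CPM in female breeders and 98.1 to 136 CPM in male breeders. The same list summed to 122 to 320 CPM in female non-breeders and 131 to 215 CPM in male non-breeders. Hepatocyte markers summed to 130048 to 233553 CPM in female breeders and 143689 to 212896 CPM in male breeders, with a median difference of -0.050. Of the endothelial markers 10 of 11 lay above 0 in female breeders against male breeders, with a median of 0.19, and the remaining one, FCN3, was lower by -1.36 ± 0.24 (SE, adjusted p = 0.0361). In the same comparison 11 of 11 macrophage (median 0.32), 6 of 6 lymphocyte (0.35) and 7 of 8 neutrophil markers (0.30) lay above 0. Of all genes 54.4% did, and 5 of 5 erythroid markers lay below 0 (-0.36). In males 9 of 9 stellate cell and fibroblast markers were lower in breeders than in non-breeders (-0.59). So were 10 of 11 macrophage (-0.44), 7 of 8 neutrophil (-1.22) and 14 of 15 hepatocyte markers (-0.12), against 53.4% of all genes. In females 13 of 15 hepatocyte (-0.32), 8 of 8 neutrophil and 5 of 5 erythroid markers (-0.73) were lower in breeders. Also lower were 5 of 9 stellate cell and fibroblast, 6 of 11 macrophage and 0 of 7 striated muscle markers, against 47.9% of all genes. In non-breeders 6 of 9 stellate cell and fibroblast, 6 of 11 macrophage and 5 of 8 neutrophil markers were lower in females. Of endothelial markers 4 of 11 and of lymphocyte markers 2 of 6 were, against 49.5% of all genes. The part of these cell types in the differences of the ribosomal genes was not tested.

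Libraries differed in a level common to many of the genes. With group means removed, pairs of the 72 genes had a mean Pearson correlation of 0.387 over the 23 libraries, against 0.0011 for pairs of all tested genes. These points share library preparation, depth and the scaling factor of each library. Positive and negative correlations cancel in such a mean, so a value near 0 does not show that genes are uncorrelated. The 72 genes and all tested genes were not matched for level. The mean was 0.440 among MRPL genes, 0.295 among MRPS genes and 0.365 between both, and 0.354 over all 72 genes without the 3 libraries that stood apart. Cytosolic ribosomal proteins reached 0.692 and complex I 0.549. Pairs of a mitochondrial ribosomal gene and a cytosolic one averaged 0.480, and pairs with complex I 0.459.

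The genes closest to the common level were MRPL14 (0.955 with the mean of the other 71 genes over 23 libraries), MRPL13 (0.928), MRPL12 (0.921), MRPS14 (0.902) and MRPL2 (0.902). MRPL14 and MRPL2 are core proteins with bacterial counterparts. Others did not follow it. MRPL53, specific to the mitochondrial large subunit, was at -0.440, MRPS31 at -0.323, MRPS26 at -0.281 and MRPL4 at -0.242. MRPL37, the most abundant by CPM, was at -0.027, as was MRPS27.

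Ordered by the median of the 72 genes relative to each gene's mean on the log2 scale, male non-breeder 3 came first (0.48), followed by male breeder 5 (0.28) and female breeder 6 (0.27). At the other end stood female breeder 2 (-0.28), female non-breeder 5 (-0.22) and female breeder 4 (-0.22). Each end held libraries of more than one group, though all those named at the low end were from females. The next lowest was male non-breeder 1 (-0.19). The standard deviation within groups was 0.178, larger than the difference of any comparison's median from 0. It describes the spread of single libraries and not the error of a difference between groups. The cytosolic ribosomal proteins and complexes I and II to V were also highest in male non-breeder 3.

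In male non-breeder 3, 39 of 72 genes had their highest value of all libraries (54.2%), where 18.9% of all tested genes did, and 7 of 72 their lowest (9.72%), where 23.3% of all genes did. Of those 39 genes, 25 were over 1.5 times and 9 over 2 times the median of the other 22 libraries. MRPL27, which reaches close to the site of peptide bond formation, was at 175.7 CPM there, whereas the other 22 libraries lay between 40.5 and 78.4 CPM. MRPS28 of the small subunit was at 63.1 CPM against 12.7 to 27.5 CPM, and MRPL55 at 37.1 CPM against 8.62 to 20.3 CPM.

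The 7 genes at their lowest in the same library were MRPL53, MRPL4, MRPS31, MRPS7, MRPL3, MRPS5 and MRPL46. MRPL53 was at 5.46 CPM, where the other 22 libraries lay between 9.78 and 15.2 CPM. MRPL4 was at 22.9 CPM against 25.2 to 51.1 CPM, and MRPS7 at 11.6 CPM against 13.7 to 19.1 CPM. For MRPS31 and MRPL46 the next library was within 0.1 CPM. In female breeder 2 the pattern was the opposite, with 22 of 72 genes (30.6%) at their lowest, where 6.66% of all genes were. There 0 of 72 were at their highest, where 9.62% of all genes were. An even share for each library would be 4.35%. MRPL27, MRPL53 and MRPS31, like MRPL2, MRPS14 and MRPL48 above, were chosen after their values were seen.

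**Figure D5:**
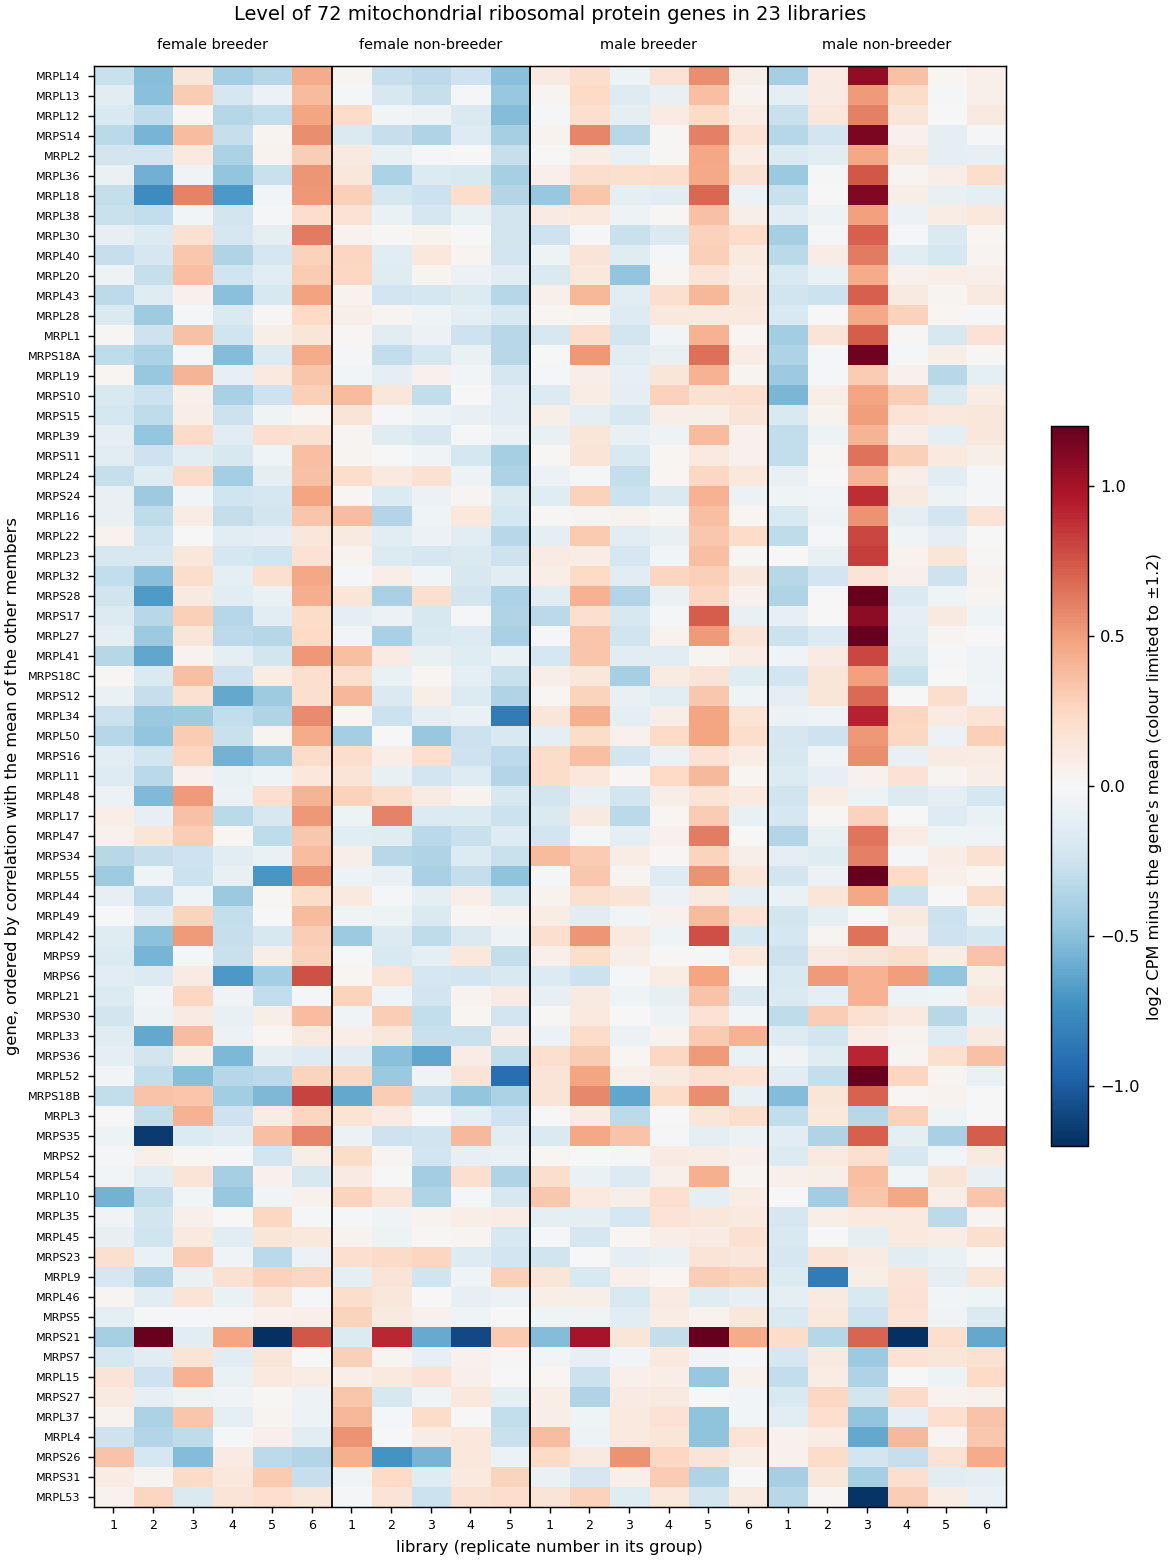
Log2 CPM of each of the 72 genes (rows) in each of 23 libraries (columns, by group and replicate number) minus the gene's mean, red above and blue below. Rows run from the genes closest to the mean of the others (MRPL14, 0.955) to the least (MRPL53, -0.440). The column of male non-breeder 3 is mostly dark red and turns blue in the bottom rows, female breeder 2 is mostly blue, and no block of red or blue follows a group.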

How the data were processed

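Liver RNA of 23 animals was sequenced from poly(A)-selected libraries of a kit that does not mark strand. The authors aligned reads with STAR (2.4.1d in the submitters' processing notes), discarded reads mapping to several places, counted with HTSeq on a transcript catalogue of the species and deposited raw counts per gene. Near-identical gene copies may have lost reads, and overlapping antisense genes cannot be told apart. The reference was the public genome of the species, whose assembly version is not named in the sources used here. The study's annotation track was held only in part and not used here. The RefSeq table at hand lists 73 of the 74 symbols, could not be matched to that genome and holds no sequences, so no positions or sequences are printed. The planned looks at transcript length and promoters were not run.

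Counts were tested in R 4.3.3 with edgeR 4.0.16: filterByExpr (minimum count 10, total 15), TMM scaling, all 23 libraries in a fit of 4 group means, quasi-likelihood F-test, two-sided, Benjamini-Hochberg adjustment over 12306 genes, threshold 0.05. Dividing each log2 fold change by the root of its F gave the standard error. Intervals are at 95%, and the prior count of log2 CPM was 2. The tests were tried on simulated data. Genes and lists were chosen with earlier results of these data known. Named were the 3 genes of smallest p per comparison, the 5 highest and 5 lowest levels, the 3 largest and 3 smallest spreads, untested genes, a fixed set, the ribosomal proteins under other symbols, and examples of the other lists, not all of which are reported here. Each title has its own animal number, and replicate numbers pair nothing. Alternatives were RLE scaling, no filter, DESeq2 1.42.0, limma 3.58.1 voom with quality weights, a threshold of 0.01, age or read length as covariate, 1 read length class, only the groups compared, and leaving out 3 libraries or each in turn. Read length comes from the study's list of libraries.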

Additional observations from a re-analysis of the deposited data

Results flagged for a closer look

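Within the 4 groups, 45 quantities of these genes were screened for a library far from the rest by Dixon's ratio, 180 tests in all. Many of the genes were picked from these same data and they vary together. The number of flagged values can therefore not be set against a chance rate. There were 22 flagged values, 13 of them in male non-breeder 3, and the summed levels and their ratio were not among them. In male non-breeder 3 these were the highest values of MRPL27 (175.7 CPM, next 56.3), MRPL43 (177.9, next 116.7), MRPS18A (75.5, next 35.2), MRPS28 (63.1, next 20.8), MRPL34 (53.1, next 33.5), MRPL52 (50.9, next 25.1), MRPS34 (41.8, next 31.2), MRPL55 (37.1, next 16.6), MRPL41 (28.3, next 17.4), MRPS12 (22.2, next 16.1), MRPL42 (14.3, next 9.504), MRPL18 (13.0, next 6.30) and MRPL47 (11.3, next 7.70).

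Female breeder 6 stood above its group for MRPL34 (41.6 CPM, next 23.5) and MRPS34 (35.3, next 25.9), and female breeder 5 below it for MRPS2 (35.6, next 41.1). Among male breeders the values were MRPL16 (100.2 CPM, next 80.5) and MRPL47 (11.1, next 7.499) in male breeder 5, MRPL52 (29.2, next 23.8) and, as the lowest, MRPS27 (28.5, next 35.6) in male breeder 2, MRPS26 (128.5, next 104.9) in male breeder 3, and MRPS7 (17.1, next 15.5) in male breeder 4. MRPL27 and MRPL52 were screened after their values were seen. Causes were not tested.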

How the results depend on the processing

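No gene of the 72 passed the threshold under any alternative run, in any comparison. The median between the sexes stayed below 0 in all 20 alternatives in non-breeders, all 22 in breeders and all 31 averaged over status. It ranged from -0.18 to -0.043 in non-breeders when 1 library was left out, from -0.21 to -0.069 in breeders and from -0.16 to -0.068 averaged over status. The medians between breeders and non-breeders took either sign, from -0.036 to 0.084 in females, from -0.061 to 0.091 in males and from -0.026 to 0.056 averaged. With read length class as a covariate, its effect set by the male breeders alone, they were 0.16, 0.033 and 0.092. All moved by less than the 0.178 spread between libraries of a group, which describes single libraries and is a wide allowance for a difference between groups. Between the sexes averaged over status, 10 to 25 genes had an unadjusted p below 0.05 in either direction. The highest number was found without female breeder 6. Over all genes, the count past the threshold between the sexes was 8 by edgeR, 60 by DESeq2, 20 by limma voom and 12 without the 3 highest libraries, and between breeders and non-breeders 0, 36, 5 and 0. In breeders 6 genes differed between the sexes by edgeR and 24 by DESeq2. No paired analysis was possible because the sample labels give no litter or breeding pair. The tests therefore treated any litter siblings and breeding partners as independent animals. Low counts limit MRPS21 above all, at 13 to 153 counts per library, and MRPL51 and MRPS33, which could not be tested except without the filter.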
